A study of Homo sapiens with 27 samples.

Results

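Caco2, a colorectal adenocarcinoma line, was compared with RT4, a bladder tumour line. The comparison used the 3 libraries labelled Caco2 and the 3 labelled RT4, 6 of the 27 libraries in a series that profiled poly-A RNA of 9 human cell lines. Caco2 was labelled colon and was grown in EMEM medium. RT4 was labelled kidney, although the line is known as urothelial, and was grown in McCoy medium. Both media held fetal bovine serum and streptomycin, so the line and its basal medium cannot be told apart. No treatment or genetic change was named for either line. The 3 libraries of a line were called biological replicates, but nothing said whether they came from separate cultures. A p-value below reflects how far replicate libraries spread, estimated from all 27 libraries, and that spread may be technical.

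Intestinal absorptive cells and urothelial cells are both polarised epithelia, and they share adherens junctions, tight junctions and simple keratins. Intestinal identity is kept by CDX, HNF4 and GATA factors, which act on genes for the brush border, nutrient transport and lipoprotein export. Urothelial identity is kept by GATA3, PPARG, FOXA1 and GRHL3, and is marked by uroplakins, the plaque proteins of the bladder surface. Caco2 is widely used as an enterocyte model because its cells polarise and form a brush border in culture.

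The 6 libraries held 15597117 to 28199711 estimated counts. Mitochondrial transcripts took 1.75% to 3.67% of counts in Caco2 libraries and 4.14% to 5.88% in RT4 libraries. Libraries of a line correlated more closely with each other (mean Spearman coefficient over protein-coding TPM 0.977 within Caco2 and 0.979 within RT4, 3 pairs each) than across the pair (mean 0.86, 9 pairs). Genes are not independent, so these coefficients describe the libraries and carry no test. Caco2 correlated about as closely with the lung line A549 (0.865) and the liver line HepG2 (0.854) as with RT4. TPM expresses each transcript as a part of all transcripts in its library after correction for length, and levels below are TPM summed over a gene's transcripts, given as mean ± SD over 3 libraries. Log2 fold changes are Caco2 over RT4 and come from the estimated counts, in which long transcripts weigh more than in TPM.

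Of 17220 genes tested with edgeR's quasi-likelihood test, 3362 were higher in Caco2 (19.5%) and 3341 were higher in RT4 (19.4%), at an adjusted p under 0.05 and at least a 2-fold difference. For 4522 genes (26.3%) the 95% interval of the fold change lay within 2-fold in either direction. The median log2 fold change over all tested genes was 0. Replicate spread, estimated from all 27 libraries, amounted to a biological coefficient of variation of 24.2%. A fit of the 6 libraries alone, which tested 14233 genes, shared 86.4% of the calls. Each list count below is read against these shares. The lists were chosen with earlier results of these data known, so their counts may in part reflect that choice. A gene that was not called can still have an adjusted p under 0.05, with less than a 2-fold difference.

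The abundant genes with the most extreme differences were silent or nearly so in the other line, which a ranking by fold change favours. Among the 15 protein-coding genes furthest towards Caco2, of those with a mean of at least 20 TPM there and no overlap between the lines, were the pioneer factor FOXA2, the intestinal homeobox factor CDX2, the retinol-binding protein RBP2, the apolipoprotein APOC3, the fatty acid carrier FABP1 and the ferroxidase HEPH. FOXA2 had 41.2, 17.6 and 24.8 TPM in the Caco2 libraries, against 0 in every RT4 library, and was at least 1123-fold higher in Caco2. RBP2 had 107, 97.3 and 95 TPM in Caco2 libraries and 0 in the RT4 libraries, at least 787-fold higher. A fold against a line with 0 counts was set against 3 counts over its 3 libraries and covers counting error only. Others of the 15 were PHYHIPL, BGN, OLFML3, ASGR2, ST3GAL6, GSTA2, SMIM24 and FUOM. PHYHIPL had the largest bound of these 15, at least 2636-fold, from 59.2 ± 36.1 TPM in Caco2 against 0 in RT4.

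Among the 15 genes furthest towards RT4 by the same rule were the connexin GJB6, the anticoagulant receptor THBD, the lipid carrier FABP4, the raft protein MAL, the insulin-like growth factor carrier IGFBP3 and the serpin SERPINB5. FABP4, a PPARG target in fat cells, had 1.45, 0.864 and 0.102 TPM in Caco2 libraries against 5060, 5421 and 4670 TPM in RT4 libraries. Its log2 fold change was -13.09 (SE 0.73, adjusted p 1.74e-13). GJB6 was at 0 in the Caco2 libraries and at 187, 119 and 151 TPM in the RT4 libraries, at least 5259-fold lower in Caco2. Others were SLITRK6, ADAMTS1, PKIA, SH3GL2, TRIM31, C3orf14, HCAR2 and TUSC3. TRIM31 lies in the major histocompatibility region of chromosome 6, where alternative haplotypes make counting uncertain, and transcripts not matched to the annotation were left out of its sum.

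Promoters are shown for RBP2, described above, and for 3 genes described below, each running from 250 bases before to 50 bases after the start, from RefSeq on GRCh38.p14. Capitals mark the 1 match to the motif searched on both strands. In FABP1, MUC13 and RBP2 the printed strand holds its reverse complement, and the VGLL1 motif reads the same on both strands. FABP1 (chr2:88128013-88128312, minus strand) holds the CDX motif TTTATGG 90 bases before the start, and 1.6% of 12810 promoters hold it. MUC13, a membrane mucin (chr3:124934702-124935001, minus strand), holds the HNF4 motif CAAAGTCCA 51 bases before the start, and 0.304% of promoters do. RBP2 (chr3:139476467-139476766, minus strand) holds the GATA motif AGATAAG 66 bases before the start, and 1.62% do. VGLL1, a TEAD cofactor (chrX:136531965-136532264, plus strand), holds the GRHL motif AACCNGGTT 140 bases before the start, and 0.234% do. These genes were chosen after their values were seen, and a match is a description, not a binding site. Among other named genes, AHSG, APOA2, CLDN6, SP5 and VTN hold the HNF4, CDX or GATA motif and were higher in Caco2. SULT2A1 holds the GATA motif and was higher in RT4 (log2 fold change -3.65). MEP1B, PARP2 and CEACAM18 hold the CDX motif and were not called. Motif shares between gene sets were not compared, because promoters were at hand for only 79.3% of the genes higher in Caco2.
FABP1: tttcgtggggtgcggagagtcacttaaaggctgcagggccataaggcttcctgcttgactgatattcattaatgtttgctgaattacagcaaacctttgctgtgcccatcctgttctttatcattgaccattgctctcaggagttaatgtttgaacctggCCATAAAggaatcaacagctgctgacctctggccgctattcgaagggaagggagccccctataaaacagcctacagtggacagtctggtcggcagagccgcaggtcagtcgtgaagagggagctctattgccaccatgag
MUC13: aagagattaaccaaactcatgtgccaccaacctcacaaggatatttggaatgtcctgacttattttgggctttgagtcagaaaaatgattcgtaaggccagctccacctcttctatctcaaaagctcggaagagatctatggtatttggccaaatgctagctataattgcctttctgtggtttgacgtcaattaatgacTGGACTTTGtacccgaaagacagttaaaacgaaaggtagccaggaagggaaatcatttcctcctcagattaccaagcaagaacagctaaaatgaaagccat
RBP2: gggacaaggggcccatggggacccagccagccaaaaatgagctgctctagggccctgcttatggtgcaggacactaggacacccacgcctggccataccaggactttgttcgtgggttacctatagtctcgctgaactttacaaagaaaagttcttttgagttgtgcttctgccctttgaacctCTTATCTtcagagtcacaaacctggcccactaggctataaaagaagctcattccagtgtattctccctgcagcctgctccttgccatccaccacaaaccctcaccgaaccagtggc
VGLL1: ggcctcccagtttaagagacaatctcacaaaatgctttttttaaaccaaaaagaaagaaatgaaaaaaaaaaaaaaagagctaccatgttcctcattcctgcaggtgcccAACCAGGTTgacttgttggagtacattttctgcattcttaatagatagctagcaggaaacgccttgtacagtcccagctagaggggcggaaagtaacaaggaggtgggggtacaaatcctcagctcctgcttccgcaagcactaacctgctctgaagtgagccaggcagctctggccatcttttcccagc

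Transcription factors that specify intestinal and other endodermal epithelium were mostly higher in Caco2. Of 19 tested list members, 14 were higher in Caco2 and 3 in RT4, with a median log2 fold change of 4.80. CDX2, the master regulator of intestinal fate, had 57.9, 46 and 65.9 TPM in Caco2 libraries, against 0.0111, 0 and 0 TPM in RT4 libraries. Its log2 fold change was 12.13 (SE 0.59, adjusted p 1.22e-11). HNF4A, a nuclear receptor of gut and liver, had 54.4, 36.3 and 72.8 TPM in Caco2 libraries, against 0.0068, 0.0624 and 0.0295 TPM in RT4 libraries, a log2 fold change of 10.13 (SE 0.37, adjusted p 2.37e-16). No Caco2 library overlapped an RT4 library for either gene. GATA6 stood at 56.4 ± 28.5 TPM in Caco2 and 1.70 ± 0.305 TPM in RT4.

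The exceptions in that list included MECOM and ONECUT2, which were higher in RT4. MECOM, a zinc-finger regulator, had 11.2 ± 4.90 TPM in Caco2 and 41.4 ± 5.39 TPM in RT4, while ONECUT2 stayed under 2 TPM in both lines on average. TCF7L2, the WNT effector, was held within 2-fold at 13.6 ± 4.50 TPM in Caco2 and 9.62 ± 3.16 TPM in RT4. NR1H4, the bile acid receptor, was near 0 in both. CDX1 had no counts and was not tested. Caco2 replicate 2 was the lowest Caco2 library for 17 of the 19 members, and it was also the lowest for 63.4% of all tested genes at 1 TPM or more.

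Factors of urothelium and surface epithelium ran the other way. Of 18 tested members, 12 were higher in RT4 and 0 in Caco2, with a median log2 fold change of -3.69. At an unadjusted p under 0.05 with edgeR, 1 member, IRX3, leaned to Caco2; DESeq2 called 0 there, limma on log2(TPM + 1) called 1, and 1 was called without Caco2 replicate 2 or without RT4 replicate 1. GATA3, which drives luminal urothelial genes, had 9.7, 4.59 and 9.19 TPM in Caco2 libraries, against 132, 155 and 177 TPM in RT4 libraries (log2 fold change -4.97, SE 0.27, adjusted p 1.04e-13). PPARG, a nuclear receptor of urothelial differentiation, had 10.9, 10.8 and 12.8 TPM in Caco2 libraries and 204, 185 and 172 TPM in RT4 libraries (log2 fold change -4.33, SE 0.21, adjusted p 1.68e-14). Both factors were thus measurable in Caco2, and every RT4 library lay far above every Caco2 library.

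TP63, the basal-layer factor of stratified epithelia, was close to absent from Caco2, with 0.0996 ± 0.106 TPM against 85.2 ± 5.64 TPM in RT4 (log2 fold change -11.14, SE 0.55, adjusted p 1.08e-13). GRHL3 and EHF, epithelial differentiation factors, had 0.0327 ± 0.0567 and 0.367 ± 0.083 TPM in Caco2 against 44.8 ± 11.1 and 63.4 ± 23.4 TPM in RT4. The T-box factor TBX3 and the retinoic acid receptor RARG were also higher in RT4. FOXA1, the other pioneer factor of urothelium, was not called, at 52.0 ± 27.5 TPM in Caco2 and 87.5 ± 25.5 TPM in RT4. Its libraries overlapped, and it leaned to RT4 short of 2-fold (log2 fold change -0.94, adjusted p 0.0079 with edgeR). KLF4, TFAP2C and IRX3 were not called either.

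**Figure D1:**
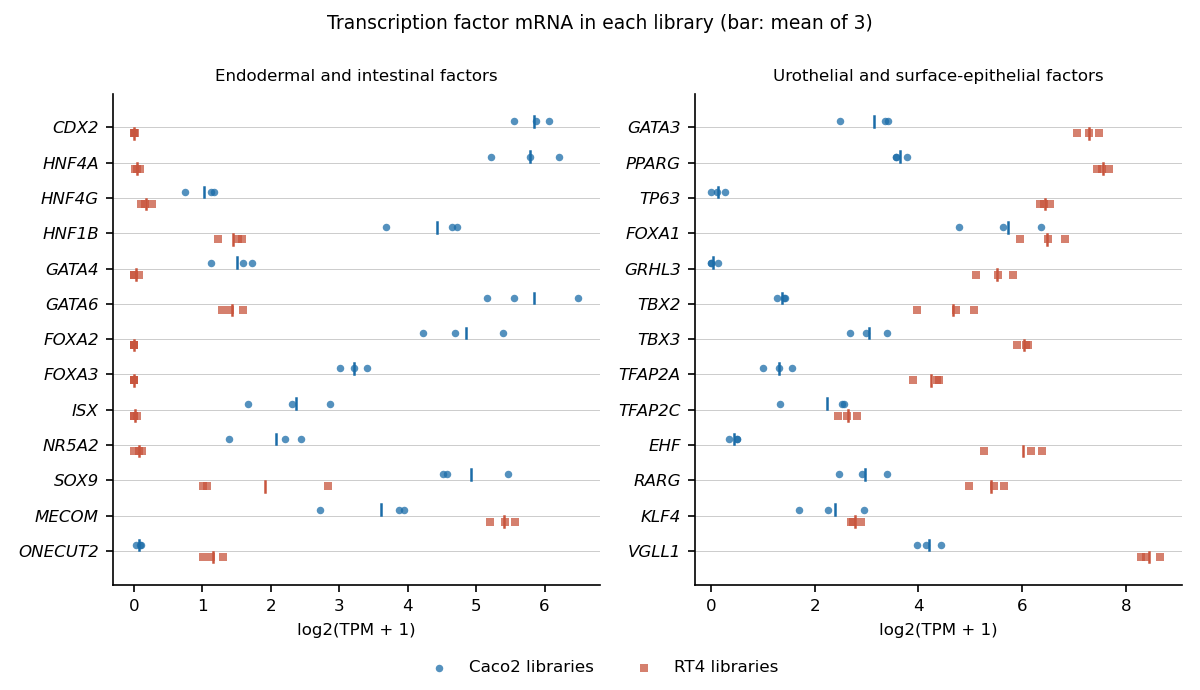
Level of 26 transcription factor genes as log2(TPM + 1) in each of 3 Caco2 libraries (circles) and 3 RT4 libraries (squares), with a bar at the log2 of the mean of 3 plus 1. On the left, CDX2, HNF4A, FOXA2 and FOXA3 sit near 0 in RT4; on the right, TP63, GRHL3 and EHF sit near 0 in Caco2, and the libraries of FOXA1, TFAP2C and KLF4 overlap.

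The enterocyte brush border, an array of microvilli bundled by actin-binding proteins, had most of its listed genes higher in Caco2. Of 26 tested members, 17 were higher in Caco2 and 4 in RT4, with a median log2 fold change of 5.60 (4.32 with genes at 0 counts in RT4 or Caco2 set at their bound). Villin, VIL1, had 231, 313 and 455 TPM in Caco2 libraries and 0.158, 0.274 and 0 TPM in RT4 libraries (log2 fold change 9.92, SE 0.67, adjusted p 1.76e-11). The intermicrovillar adhesion scaffold USH1C had 98.5 ± 5.73 TPM in Caco2 and 0.127 ± 0.139 TPM in RT4. The dipeptidyl peptidase DPP4 had 80.8 ± 13.1 TPM in Caco2 and 0.0691 ± 0.12 TPM in RT4. Intestinal alkaline phosphatase ALPI was at least 395-fold higher in Caco2, from 10.6 ± 3.82 TPM there.

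Disaccharidases, the sugar-splitting enzymes of mature enterocytes, were low in Caco2. Sucrase-isomaltase SI had 1.27, 0.216 and 0.607 TPM in Caco2 libraries and 0 in RT4 libraries, and lactase LCT had 0.22 ± 0.0591 TPM in Caco2 and 0.0179 ± 0.0251 TPM in RT4. MGAM, the maltase, was not called. EZR, the membrane-actin linker of most epithelia, was not called at 189 ± 15.2 TPM in Caco2 and 103 ± 11.6 TPM in RT4. It leaned to Caco2 short of 2-fold (log2 fold change 0.69, adjusted p 0.014 with edgeR). The 4 members higher in RT4 included PLS1, EPS8 and MME. Without Caco2 replicate 2 that number was 2, and the log2 fold change of EPS8, an actin-capping protein, was then under the 2-fold limit at -0.90, against -1.08 with all libraries.

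Of 22 tested genes for nutrient, ion and sterol transport, 15 were higher in Caco2 and 1 in RT4, with a median log2 fold change of 3.29. The drug efflux pump ABCB1 had 55.5, 47.7 and 68.2 TPM in Caco2 libraries and 0.103, 0.112 and 0.181 TPM in RT4 libraries (log2 fold change 8.79, SE 0.41, adjusted p 7.31e-15). The bile acid exporter subunit SLC51B had 54.3 ± 15.8 TPM in Caco2 and 0.0201 ± 0.0348 TPM in RT4, whereas its partner SLC51A was held within 2-fold at 3.50 ± 1.86 TPM in Caco2 and 2.80 ± 0.346 TPM in RT4. The folate carrier SLC46A1 and the iron exporter SLC40A1 were higher in Caco2, at 105 ± 31.8 and 73.5 ± 33.7 TPM there against 11.8 ± 1.93 and 6.61 ± 0.428 TPM in RT4. The chloride channel CFTR had 32.3 ± 10.8 TPM in Caco2 and 0.754 ± 0.709 TPM in RT4. Its log2 fold change in counts was 11.54, larger than the TPM ratio, with 2 counts in the RT4 libraries together. TPM and counts also parted for CDHR2, a protocadherin of microvilli, at 1.03 ± 0.672 TPM in Caco2 and 0.874 ± 0.546 TPM in RT4 but a log2 fold change in counts of 1.88. TRPV6, an epithelial calcium channel, was the member higher in RT4, at 1.33 ± 0.755 TPM in Caco2 and 38.8 ± 9.48 TPM in RT4. ABCG5, ABCG8 and SLC2A5 were not called.

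Lipoprotein and fatty acid carrier genes were mostly higher in Caco2. Their summed level was 3950 to 4830 TPM in Caco2 libraries and 139 to 168 TPM in RT4 libraries, and 13 of 20 members were higher in Caco2. APOA2, a protein of high-density lipoprotein that carried most of that sum in Caco2, had 2100, 3340 and 2360 TPM in Caco2 libraries against 0.94, 2.78 and 0.579 TPM in RT4 libraries (log2 fold change 11.10, SE 1.00, adjusted p 9.64e-10). FABP1, whose promoter is printed above, had 458, 346 and 313 TPM in Caco2 libraries and 0, 0.235 and 0 TPM in RT4 libraries (log2 fold change 12.18, SE 0.71, adjusted p 9.78e-13). APOB, the structural protein of chylomicrons and very-low-density lipoprotein, had 17.6 ± 4.01 TPM in Caco2 and rounded to 0 counts in RT4, at least 4278-fold higher.

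Some genes of fat absorption were at or near 0 in both lines. MTTP, which loads lipid onto APOB, had 0.0339 ± 0.04 TPM in Caco2 and 0 in RT4, and FABP2, the intestinal fatty acid carrier, had 0.0306 ± 0.03 TPM in Caco2 and 0.0303 ± 0.0098 TPM in RT4. DGAT1, which makes triglyceride, was higher in Caco2 at 64.8 ± 12.3 TPM against 17.0 ± 2.64 TPM in RT4. DGAT2 was held within 2-fold. FABP6, an ileal bile acid carrier, was the member higher in RT4, and that call was lost without Caco2 replicate 1, without Caco2 replicate 3 or without RT4 replicate 1, when 0 members were higher in RT4.

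Plasma proteins usually made by liver were measured in Caco2 at sizeable levels. Of 21 tested members, 19 were higher in Caco2 and 1 in RT4, with a median log2 fold change of 7.96 (7.47 with bounds). SERPINA1, the elastase inhibitor, had 476, 511 and 367 TPM in Caco2 libraries and 0.394, 0.714 and 0.157 TPM in RT4 libraries (log2 fold change 9.98, SE 0.68, adjusted p 6.41e-12). VTN, RBP4 and TTR, carriers and adhesion proteins of serum, had 724 ± 238, 439 ± 125 and 271 ± 42.0 TPM in Caco2, all against less than 1 TPM in RT4. Albumin, ALB, was far lower in Caco2 than these, at 6.2, 1.32 and 1.92 TPM, against 0.322, 0 and 0.145 TPM in RT4. The exception was complement C3, with 7.6, 37.2 and 9.77 TPM in Caco2 libraries and 147, 154 and 23.5 TPM in RT4 libraries, a log2 fold change of -3.16 (SE 0.85, adjusted p 0.0028). RT4 replicate 3 was below Caco2 replicate 2 for this gene, so the lines overlapped.

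All 20 genes of the urothelial differentiation list were tested and higher in RT4, with a median log2 fold change of -6.17. UPK2, a uroplakin, had 2.64, 1.01 and 4.2 TPM in Caco2 libraries and 176, 167 and 146 TPM in RT4 libraries (log2 fold change -6.22, SE 0.43, adjusted p 2.84e-11). UPK3A and UPK1A were each under 1 TPM on average in Caco2, at 54.0 ± 15.4 and 30.9 ± 10.7 TPM in RT4. UPK1B was less far apart, at 22.6 ± 6.73 TPM in Caco2 and 129 ± 28.5 TPM in RT4. ADIRF, a regulator first described in fat cells, and the monooxygenase CYP4B1 had 1.95 ± 0.92 and 0.409 ± 0.239 TPM in Caco2 against 1370 ± 136 and 416 ± 85.5 TPM in RT4. Of the epithelial sodium channel subunits, SCNN1B was at 0 in Caco2 and at least 670-fold lower there, whereas SCNN1A had 20.1 ± 9.57 TPM in Caco2 and 99.5 ± 24.0 TPM in RT4.

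RT4 was checked against kidney tubule markers, since its tissue label said kidney. Of 10 such markers 6 were tested, and all 6 were higher in Caco2. The endocytic receptor LRP2 had 54, 35.1 and 94.4 TPM in Caco2 libraries and 0.00271, 0.00981 and 0.00555 TPM in RT4 libraries (log2 fold change 11.49, SE 0.69, adjusted p 6.18e-13). The tubule cadherin CDH16 had 8.48 ± 2.28 TPM in Caco2 and 0 counts in RT4. PAX8, a renal transcription factor, had 6.03 ± 1.54 TPM in Caco2 and 1.99 ± 0.679 TPM in RT4, and PAX2 was at 0 in RT4. UMOD, AQP2, SLC12A1 and SLC34A1 were not tested. The tubule markers other than PAX8 were under 1 TPM in RT4. Since the tested markers were higher in Caco2, labelled colon, they cannot settle the tissue label of a line here. Uroplakin levels of RT4 are given above.

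Markers of non-epithelial cells were low in both lines. The summed mesenchymal markers reached 20.7 to 46.0 TPM in Caco2 libraries and 16.2 to 28.5 TPM in RT4 libraries. Of 14 tested, COL1A1, PDGFRA, PDGFRB and VIM were higher in Caco2, while SNAI2 and CDH2 were higher in RT4. Vimentin, VIM, had only 2.80 ± 0.337 TPM in Caco2 and 0.761 ± 0.688 TPM in RT4. SNAI2, which basal epithelial cells also express, had 0.0207 ± 0.0194 TPM in Caco2 and 15.8 ± 7.54 TPM in RT4. Endothelial markers summed to 1.89 to 3.74 TPM in Caco2 libraries and 1.05 to 1.81 TPM in RT4 libraries, and the receptors KDR and TEK had 0 counts in both. Haematopoietic markers summed to 21.5 to 28.3 TPM in Caco2 libraries and 0.406 to 0.943 TPM in RT4 libraries. Nearly all of that came from lysozyme LYZ and the lipopolysaccharide receptor CD14, which epithelial cells also express, at 8.93 ± 3.51 and 15.4 ± 2.62 TPM in Caco2. The leukocyte antigen PTPRC was under 1 TPM in both lines, and SPI1, CD3E and TYROBP were not tested. Fewer cells of a type and less RNA per cell cannot be told apart in such bulk libraries. Of 8 enteroendocrine markers only CHGB was tested, under 1 TPM in both lines.

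**Figure D2:**
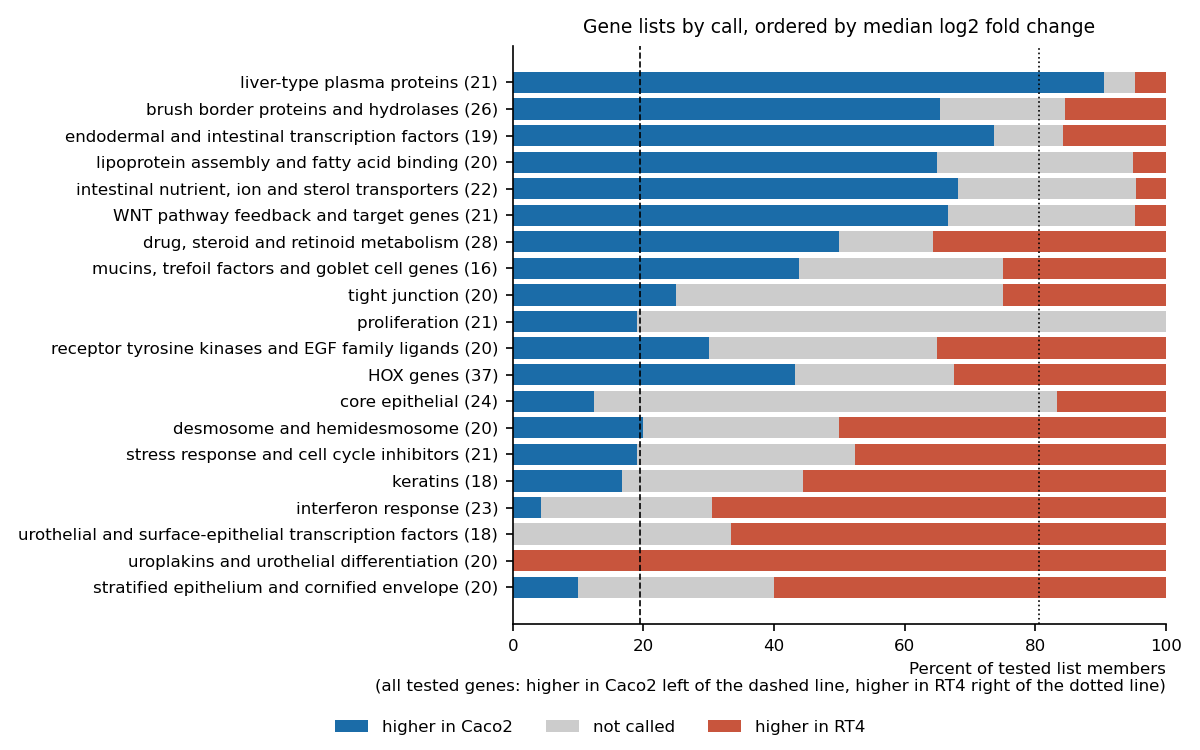
Share of tested members of 20 gene lists that were higher in Caco2 (left segment), not called (middle) or higher in RT4 (right segment), with the number tested in brackets, ordered by median log2 fold change. The dashed and dotted lines mark the shares over all tested genes, 19.5% higher in Caco2 and 19.4% higher in RT4; the urothelial differentiation list is wholly higher in RT4, and 19 of 21 plasma protein genes are higher in Caco2.

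Keratins, the intermediate filament proteins of epithelia, differed in both directions. Of 18 tested, 3 were higher in Caco2 and 10 in RT4. The simple-epithelial pair KRT8 and KRT18 was higher in Caco2, as was KRT4, a keratin of stratified epithelium, at 1.89 ± 1.55 TPM in Caco2 and 0.0177 ± 0.0153 TPM in RT4. KRT8 had 2350, 3170 and 3090 TPM in Caco2 libraries and 778, 964 and 1220 TPM in RT4 libraries (log2 fold change 1.46, SE 0.23, adjusted p 9.25e-06). KRT18 had 4280 ± 1460 TPM in Caco2 and 1120 ± 117 TPM in RT4. KRT7, a keratin of urothelium and ducts, had 0.846, 1.69 and 1.64 TPM in Caco2 libraries and 2300, 3100 and 2640 TPM in RT4 libraries (log2 fold change -12.37, SE 0.71, adjusted p 3.26e-13).

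KRT19 was abundant in both lines and higher in RT4, at 797 ± 54.1 TPM in Caco2 and 2180 ± 140 TPM in RT4. KRT20, known from colon epithelium and from umbrella cells of the bladder, was low in both, at 0.415 ± 0.245 TPM in Caco2 and 3.30 ± 1.30 TPM in RT4. KRT17, a basal keratin, had 2.91, 23.4 and 7.57 TPM in Caco2 libraries and 910, 807 and 800 TPM in RT4 libraries. KRT17 shares sequence with KRT14 and KRT16, so reads may be divided among them. KRT5, KRT6A and KRT14, also keratins of stratified epithelium, were each under 1 TPM in both lines on average.

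Genes of stratified and cornified epithelium were mostly higher in RT4, 12 of 20 tested, against 2 in Caco2. S100A2, a calcium-binding protein of basal cells, had 2.01, 1.66 and 0.972 TPM in Caco2 libraries and 6590, 6070 and 7110 TPM in RT4 libraries (log2 fold change -12.28, SE 0.64, adjusted p 5.21e-14). Involucrin, IVL, had 0.00769 ± 0.0133 TPM in Caco2 and 60.8 ± 9.59 TPM in RT4. The calprotectin subunit S100A9 had 0.256, 0.394 and 0.843 TPM in Caco2 libraries and 458, 948 and 480 TPM in RT4 libraries. The kallikreins KLK6 and KLK7 were the members higher in Caco2, with KLK6 at 46.4 ± 8.96 TPM there and 0.0233 ± 0.0404 TPM in RT4. TGM1, the cornified-envelope transglutaminase, and SCEL were not called.

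Of 24 core epithelial genes, 17 were not called, 8 were held within 2-fold, 3 were higher in Caco2 and 4 in RT4, with a median log2 fold change of -0.31. These shares lay near those over all tested genes, of which 26.3% were held within 2-fold, 19.5% were higher in Caco2 and 19.4% in RT4. E-cadherin, CDH1, had 245, 163 and 240 TPM in Caco2 libraries and 206, 226.4 and 202.9 TPM in RT4 libraries, with a log2 fold change of -0.20 (SE 0.33) whose interval lay within 2-fold. The lines overlapped fully. The splicing regulators ESRP1 and ESRP2, the tricellular junction receptor LSR, the polarity protein CRB3 and P-cadherin, CDH3, were likewise held within 2-fold.

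EPCAM, an adhesion molecule of epithelial surfaces, was called higher in Caco2, with 955, 858 and 845 TPM there and 216.6, 198 and 221 TPM in RT4 libraries (log2 fold change 1.91, SE 0.39, adjusted p 0.00018). The membrane protease PRSS8 was also higher in Caco2, at 179 ± 41.9 TPM against 14.0 ± 1.89 TPM in RT4. GRHL1, GRHL2 and ELF3, epithelial transcription factors, were higher in RT4. The log2 fold change of GRHL2 was just under the 2-fold limit without Caco2 replicate 2 (-0.99) and with limma on log2(TPM + 1) (-0.98).

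Tight junction genes were shared in their scaffold and divided in their claudins, the strands that set paracellular permeability. Of 20 tested, 5 were higher in Caco2, 5 in RT4 and 10 were not called. CLDN6, a claudin of fetal epithelia, had 104, 122 and 103 TPM in Caco2 libraries and 0.0371, 0.0672 and 0 TPM in RT4 libraries (log2 fold change 11.35, SE 0.57, adjusted p 2.37e-14). CLDN7 and the cation-pore claudin CLDN2 had 117 ± 28.5 and 15.1 ± 5.34 TPM in Caco2, against 0.165 ± 0.0885 and 0.00535 ± 0.00926 TPM in RT4. CLDN1 had 27.8, 27 and 23.7 TPM in Caco2 libraries and 263, 212 and 231 TPM in RT4 libraries (log2 fold change -3.33, SE 0.29, adjusted p 7.44e-10).

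CLDN4, a sealing claudin, was called higher in RT4 near the fold limit, at 110 ± 28.7 TPM in Caco2 and 209.4 ± 44.9 TPM in RT4, and its log2 fold change was -0.99 without Caco2 replicate 2 and -0.93 with limma on log2(TPM + 1). The junctional adhesion molecule F11R, the adenovirus receptor CXADR, MARVELD3 and CLDN12 were held within 2-fold. Occludin, OCLN, was not called at 41.6 ± 18.7 TPM in Caco2 and 28.7 ± 8.36 TPM in RT4. TJP1, a scaffold protein, was higher in Caco2 at the fold limit (log2 fold change 1.01), below it without Caco2 replicate 1 (0.75) or without RT4 replicate 3 (0.92) and with limma on log2(TPM + 1) (0.96).

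Desmosome and hemidesmosome genes, which anchor keratins to neighbours and to the basement membrane, leaned to RT4, with 10 of 20 higher there and 4 in Caco2. The hemidesmosome integrin ITGB4 had 16.1, 28.9 and 14.2 TPM in Caco2 libraries and 224, 306 and 241.2 TPM in RT4 libraries (log2 fold change -4.43, SE 0.47, adjusted p 1.68e-08). COL17A1, its transmembrane collagen partner, had 0.153 ± 0.193 TPM in Caco2 and 27.3 ± 6.95 TPM in RT4. Desmosomal PKP2 and DSP were higher in Caco2, at 152 ± 37.5 and 72.5 ± 18.8 TPM there and 19.4 ± 3.57 and 19.4 ± 3.10 TPM in RT4. The laminin chains LAMA3 and LAMB3 were not called.

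**Figure D3:**
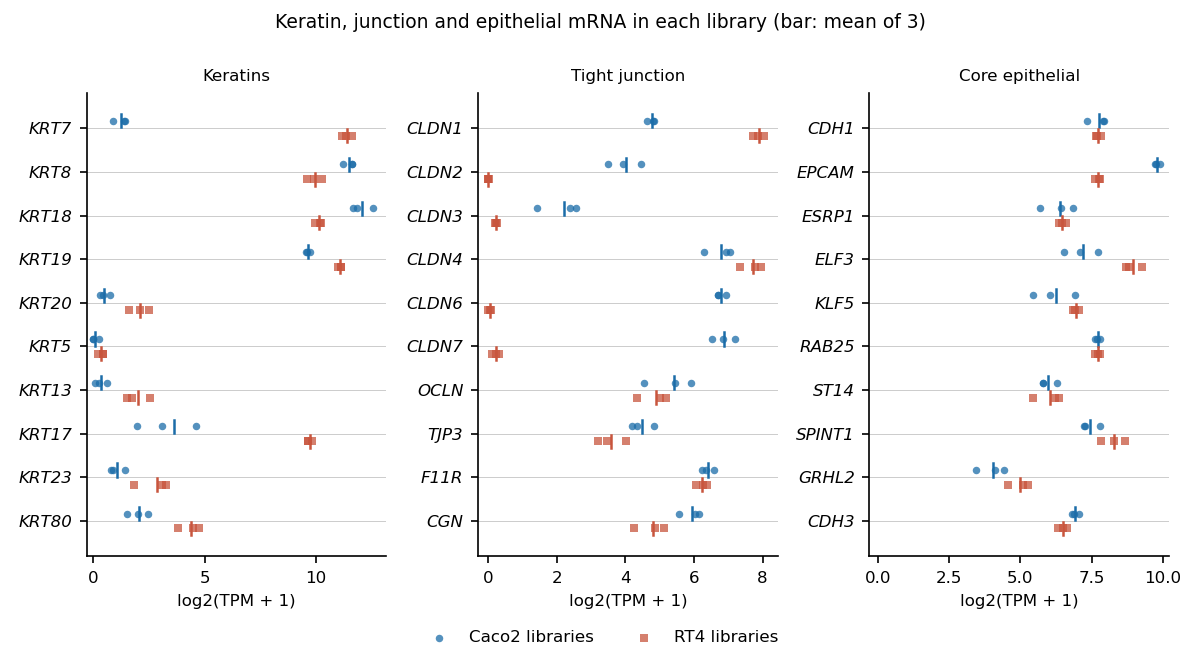
Level of keratin, tight junction and core epithelial genes as log2(TPM + 1) in each of 3 Caco2 libraries (circles) and 3 RT4 libraries (squares), with a bar at the log2 of the mean of 3 plus 1. KRT7 and KRT17 are far to the left in Caco2, CLDN2, CLDN6 and CLDN7 are near 0 in RT4, and CDH1, ESRP1, RAB25 and ST14 overlap.

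A set of 61 genes (0.354% of those tested) stood at least 4-fold above each of the other 7 lines in both Caco2 and RT4. Of these, 60 were protein coding, 34 were not called between the pair, and 9 were held within 2-fold. Between the lines, 10 of the 61 were higher in Caco2 and 17 in RT4. The core epithelial list held 9 of the 61. The uroplakin UPK2 and the calcium channel TRPV6, both higher in RT4, were also in the set. UPK2 had 2.61 ± 1.60 TPM in Caco2, 163 ± 15.2 TPM in RT4 and at most 0.408 TPM as the mean of any other line. RAB25, a small GTPase of apical recycling, had 197, 223 and 207 TPM in Caco2 libraries, 195, 223 and 210.7 TPM in RT4 libraries, and at most 0.152 TPM as the mean of any other line. The transmembrane protease ST14 had 62.0 ± 12.9 TPM in Caco2 and 65.4 ± 19.8 TPM in RT4, with other line means of at most 0.183 TPM. VGLL1, printed above, was also in the set although the lines differed, with 14.8, 20.6 and 16.6 TPM in Caco2 libraries, 333, 400 and 314 TPM in RT4 libraries and at most 0.191 TPM as the mean of any other line. Its call between Caco2 and RT4 was lost with DESeq2 (log2 fold change -4.58, adjusted p 0.398).

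The 10 with the largest margin were RAB25, GRHL2, OVOL1, VGLL1, CEACAM18, C6orf222, CAPN13, TMEM30B, PRSS22 and ST14. CEACAM18 and C6orf222 were low, at 1.16 ± 0.355 and 2.65 ± 1.62 TPM in Caco2 and 1.18 ± 0.216 and 1.04 ± 0.291 TPM in RT4. CDH1 was in the set with a smaller margin, and A549 had a mean of 40.6 TPM. In HepG2 libraries mitochondrial transcripts took 33.3% to 71.6% of counts, which lowers the TPM of other genes, and CDH1 stood at 3.67 TPM. Without the HepG2 libraries the set held 151 genes.

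Mucin and goblet cell genes differed in both directions. Of 16 tested, 7 were higher in Caco2 and 4 in RT4. MUC13 had 7.00 ± 0.791 TPM in Caco2 and 0.00532 ± 0.00921 TPM in RT4, and the trefoil peptide TFF3 had 15.0 ± 3.43 TPM in Caco2 and 0 counts in RT4. AGR2, a protein disulphide isomerase needed for mucin folding, was higher in RT4, at 111 ± 9.35 TPM in Caco2 and 451 ± 99.6 TPM in RT4. The gel-forming mucins MUC5AC and MUC5B were under 1 TPM in both lines. Without Caco2 replicate 2 or without RT4 replicate 1 only 2 members were higher in RT4. MUC1, a membrane mucin at 2.30 ± 0.252 TPM in Caco2 and 3.37 ± 2.60 TPM in RT4, had an adjusted p of 0.0401 and lost its call under most alternatives. It was lost without any of 4 of the 6 libraries, with adjusted p-values of 0.0525 to 0.31. It was also lost with DESeq2 (adjusted p 0.0517), with limma on log2(TPM + 1) (log2 fold change -0.25, adjusted p 0.7), with RLE scaling, with no low-count filter and in a fit of the 6 libraries alone. TFF1, another trefoil peptide, lost its call towards Caco2 without Caco2 replicate 2 (adjusted p 0.0538 with edgeR).

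Targets and feedback inhibitors of WNT signalling, the pathway that maintains intestinal crypts and is activated in most colorectal tumours, were mostly higher in Caco2. Of 21 tested, 14 were higher in Caco2 and 1 in RT4, with a median log2 fold change of 2.66. AXIN2, a feedback inhibitor, had 18, 8.95 and 23.4 TPM in Caco2 libraries and 0.21, 0.103 and 0.217 TPM in RT4 libraries (log2 fold change 6.47, SE 0.44, adjusted p 6.23e-12). NKD1, NOTUM and SP5 had 14.8 ± 5.71, 3.69 ± 1.65 and 30.6 ± 14.3 TPM in Caco2 and had 0.0177 ± 0.0115, 0.0312 ± 0.0379 and 0.0299 ± 0.0108 TPM in RT4. The secreted inhibitor DKK1 had 1160, 1570 and 1180 TPM in Caco2 libraries and 61.4, 70.8 and 83.3 TPM in RT4 libraries (log2 fold change 4.08, SE 0.30, adjusted p 2.42e-11).

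Not every target followed. LGR5, a receptor of crypt stem cells, had 11.1, 2.88 and 10.8 TPM in Caco2 libraries and 18.7, 10.6 and 15.7 TPM in RT4 libraries, overlapping and not called (adjusted p 0.0532). EPHB3 was the member higher in RT4, and 2 members were called higher there without Caco2 replicate 1, without Caco2 replicate 3 or without RT4 replicate 2. CD44 and the cyclin CCND1 were not called. CCND1 leaned to RT4 short of 2-fold (log2 fold change -0.70, adjusted p 0.0017 with edgeR), whereas CD44 had an adjusted p of 0.347. The stem cell marker OLFM4 had 0 counts in both lines.

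Growth factor receptors and their ligands differed in both directions. Of 20 tested receptors and EGF-family ligands, 6 were higher in Caco2 and 7 in RT4. FGFR4 and FGFR1 were higher in Caco2, at 99.8 ± 20.0 and 19.9 ± 5.82 TPM there and 0.483 ± 0.258 and 0.398 ± 0.0796 TPM in RT4. FGFR3, an oncogene of bladder tumours, had 74.1, 24.9 and 53.9 TPM in Caco2 libraries and 29.8, 44.5 and 47.9 TPM in RT4 libraries and was held within 2-fold. EGFR was higher in RT4, at 7.11 ± 1.74 TPM in Caco2 and 28.3 ± 2.15 TPM in RT4. Its relative ERBB2 was not called, and ERBB3 was held within 2-fold. The EGFR ligands split. Amphiregulin, AREG, had 215, 197 and 245 TPM in Caco2 libraries and 0.502, 1.14 and 1.53 TPM in RT4 libraries (log2 fold change 7.53, SE 0.65, adjusted p 4.16e-10), and EREG and HBEGF were also higher in Caco2. TGFA had 0.0423 ± 0.0377 TPM in Caco2 and 15.0 ± 1.66 TPM in RT4, and BTC was also higher in RT4.

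Interferon-stimulated genes were mostly higher in RT4, 16 of 23 tested, against 1 in Caco2, with a median log2 fold change of -2.21. OAS2, a sensor of double-stranded RNA, had 3.33, 0.694 and 1.55 TPM in Caco2 libraries and 54.9, 54.3 and 30.2 TPM in RT4 libraries (log2 fold change -5.45, SE 0.49, adjusted p 1.08e-09). IFI44 was at 0 in Caco2, at least 380-fold lower there, with 28.8, 24.6 and 10.3 TPM in RT4 libraries. IFIT3 had 2.86 ± 1.63 TPM in Caco2 and 24.0 ± 8.26 TPM in RT4. BST2, the tetherin of enveloped viruses, was the member higher in Caco2, with 142, 118 and 159 TPM there and 24.7, 8.15 and 1.9 TPM in RT4 libraries (log2 fold change 3.26, SE 0.51, adjusted p 6.31e-06).

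ISG15, IFI6 and IFI27 were not called. RT4 replicate 3 was the lowest RT4 library for 21 of the 23 members, against 17.3% of all tested genes at 1 TPM or more. Caco2 replicate 2 was the lowest Caco2 library for 18 of 22. Caco2 replicate 2 was the lowest for 63.4% of all such genes. The part of these library differences in the result was not tested. Without RT4 replicate 1, 3 members were higher in Caco2. PSMB8 and PSMB9, immunoproteasome subunits, lie in the histocompatibility region and share the limit given for TRIM31.

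**Figure D4:**
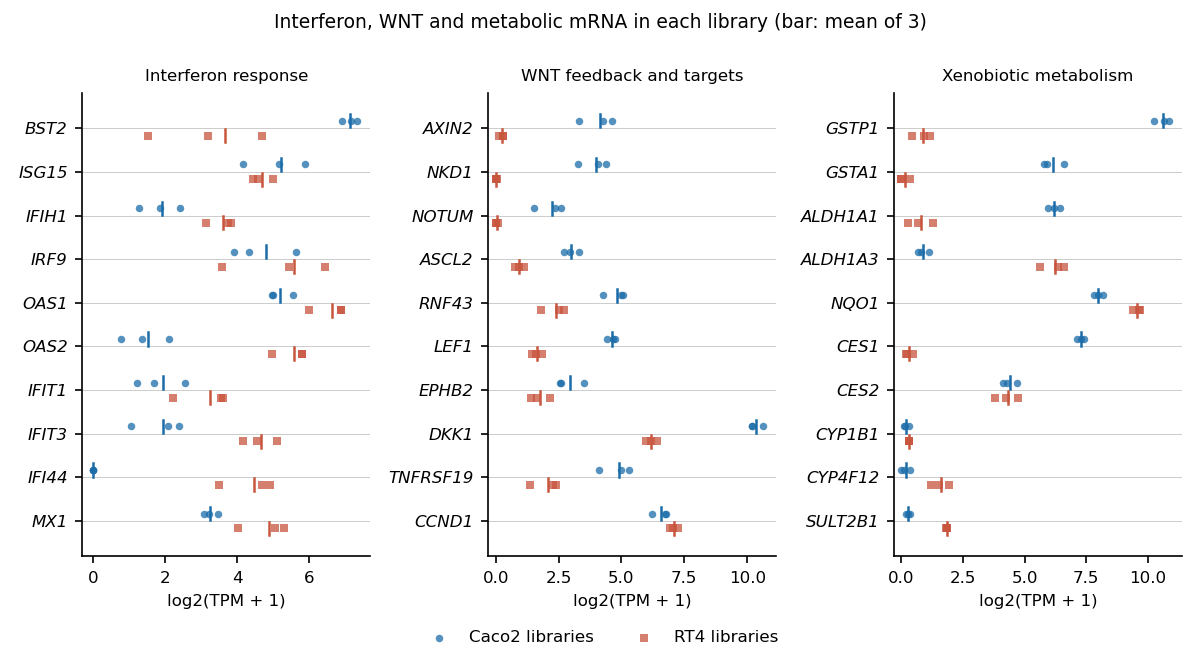
Level of interferon response, WNT target and metabolic genes as log2(TPM + 1) in each of 3 Caco2 libraries (circles) and 3 RT4 libraries (squares), with a bar at the log2 of the mean of 3 plus 1. OAS2, IFIT3 and IFI44 lie higher in RT4 and BST2 in Caco2, AXIN2, NKD1 and DKK1 lie higher in Caco2, and GSTP1, GSTA1 and CES1 are near 0 in RT4.

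Enzymes of drug, steroid and retinoid metabolism were divided, with 14 of 28 higher in Caco2 and 10 in RT4. GSTP1, the glutathione transferase of most epithelia, had 1220, 1840 and 1610 TPM in Caco2 libraries and 0.359, 1.25 and 0.866 TPM in RT4 libraries (log2 fold change 10.91, SE 0.45, adjusted p 9.31e-16). The carboxylesterase CES1 had 154 ± 13.8 TPM in Caco2 and 0.235 ± 0.122 TPM in RT4, whereas CES2 was held within 2-fold. GSTA1 was also higher in Caco2, but it is nearly identical to GSTA2 and reads may be divided between them. The retinaldehyde dehydrogenases were reciprocal. ALDH1A1 had 85.2, 60.3 and 71.7 TPM in Caco2 libraries and 0.586, 0.204 and 1.45 TPM in RT4 libraries (log2 fold change 6.59, SE 0.71, adjusted p 2.29e-08). ALDH1A3 had 0.741, 0.576 and 1.15 TPM in Caco2 libraries and 48.6, 95.4 and 80.6 TPM in RT4 libraries (log2 fold change -6.96, SE 0.27, adjusted p 5.23e-16). NQO1, a quinone reductase, was higher in RT4, at 255 ± 30.8 TPM in Caco2 and 765 ± 79.9 TPM in RT4.

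Cell cycle inhibitors and stress response genes were more often higher in RT4, 10 of 21, against 4 in Caco2. CDKN2A, which encodes p16, had 11.8, 17.6 and 13.7 TPM in Caco2 libraries and 0 in the RT4 libraries, at least 124-fold higher. Its chromosome 9 neighbours CDKN2B and MTAP had 3.27 ± 1.35 and 13.3 ± 0.797 TPM in Caco2, against 0 and 0.473 ± 0.216 TPM in RT4. CDKN1A, the p21 inhibitor, had 10.1 ± 2.03 TPM in Caco2 and 105 ± 47.7 TPM in RT4, and GDF15, BAX, FAS and MDM2 were also higher in RT4. RB1, SESN1 and CDKN1B were held within 2-fold.

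Most proliferation genes were not called. Of 21 tested, 17 were not called, 4 were higher in Caco2 and 0 in RT4, shares near or below those over all genes. MKI67, the Ki-67 antigen, had 16.2, 28 and 23.4 TPM in Caco2 libraries and 8.71, 26.1 and 20.4 TPM in RT4 libraries, and PCNA and MCM3 were held within 2-fold. AURKA and E2F1 were higher in Caco2. The calls of CDK1 and AURKB were lost without RT4 replicate 1 or without RT4 replicate 2, which left 2 members higher in Caco2, and with the P number of the titles as a covariate or no low-count filter. CDK1 was also lost without Caco2 replicate 1 (adjusted p 0.0528 with edgeR), and AURKB without Caco2 replicate 2 (0.0905). At an unadjusted p under 0.05 with edgeR, 0 members leaned to RT4, and DESeq2 and limma also called 0 there. RT4 replicate 1 was the lowest RT4 library for 19 of the 21 members, and for 62.7% of all tested genes at 1 TPM or more.

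HOX genes, which record position along the body axis, differed in both directions. Of 37 tested, 16 were higher in Caco2 and 12 in RT4. HOXB9 had 16.6, 23.5 and 23.5 TPM in Caco2 libraries and 0.359, 0.26 and 0.293 TPM in RT4 libraries (log2 fold change 5.91, SE 0.37, adjusted p 5.96e-12). HOXA13 and HOXA11, of the 5′ end of the HOXA cluster, were higher in RT4, at 5.63 ± 0.487 and 0.963 ± 0.0478 TPM in Caco2 against 31.4 ± 4.55 and 11.0 ± 2.24 TPM in RT4. HOXA3 and HOXA4 towards the 3′ end were higher in Caco2. That order did not hold in other clusters. HOXC12, towards the 5′ end of HOXC, was higher in Caco2 (log2 fold change 7.10). HOXD1, at the 3′ end of HOXD, was higher in RT4 (log2 fold change -4.83). HOXA7 and HOXC13 were held within 2-fold. HOXC8 and HOXC10 were higher in Caco2, and HOXD8 and HOXD9 in RT4.

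Transcript tables also showed which isoform carried a gene. Of 5152 genes with at least 10 TPM in all 6 libraries and at least 2 transcripts, 3540 had 1 steady top transcript within each line, and the others could not be compared. In 47 genes, 0.912% of the 5152, the steady top transcript differed between the lines. In 31 of the 47 both transcripts were annotated as protein coding, and in 19 their first bases lay over 1000 bases apart on the annotation. ACSL5, an acyl-CoA synthetase, led the list. ENST00000354655 carried 93.9%, 80.9% and 85.4% of its TPM in Caco2 libraries and 5.31%, 1.97% and 3.12% in RT4 libraries. ENST00000356116, which starts 2180 bases away on chromosome 10, carried 0% in the Caco2 libraries and 86.0%, 88.9% and 87.8% in the RT4 libraries.

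The ubiquitin ligase RNF128 used ENST00000255499 for 82.1% to 100% of its TPM in Caco2 and for 9.24% to 23.8% in RT4, where ENST00000324342, starting 32826 bases away, carried 71.9% to 90.8%. The thioesterase ACOT7 used ENST00000377845 in Caco2 (81.8% to 92.2%) and ENST00000608083 in RT4 (60.1% to 93.6%), 32654 bases apart at their starts. For NDUFS5, a subunit of respiratory complex I, the starts were the same, and RT4 libraries divided almost evenly, with 50.9% to 54.4% on ENST00000372969. Shares have no test here, because the tables give each transcript's estimate without its error, and overlapping transcripts share reads. Leaving out 1 library asks for the same top transcript in fewer libraries, and the number then ranged from 60 without RT4 replicate 3 to 160 without Caco2 replicate 3.

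**Figure D5:**
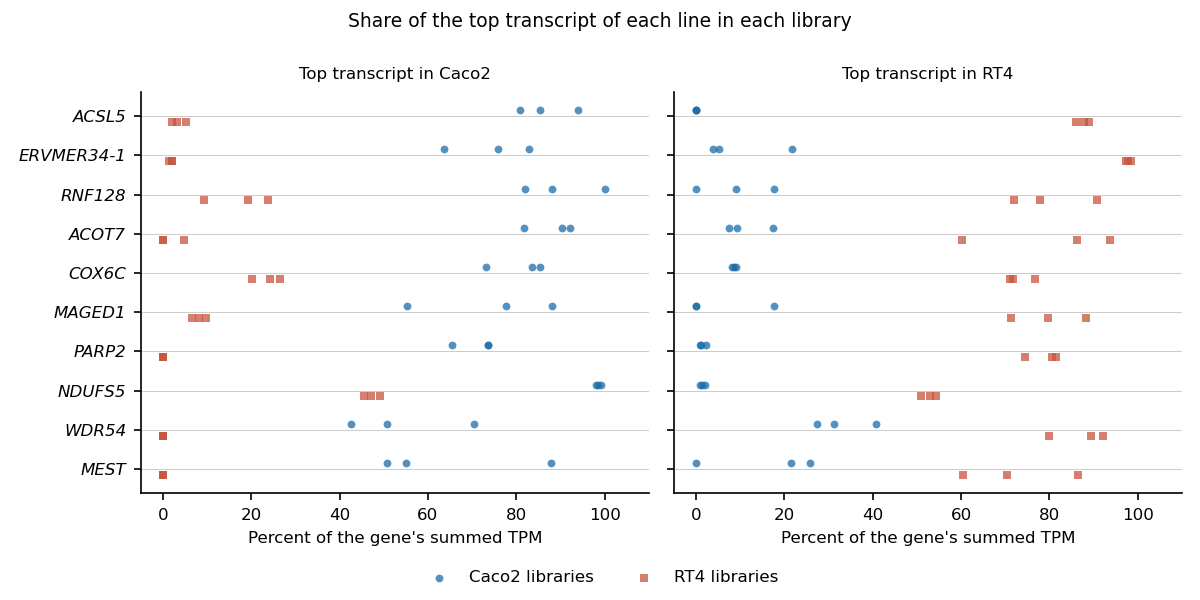
Share of a gene's summed TPM, in percent, carried by the transcript that leads in Caco2 (left) and by the one that leads in RT4 (right), in each of 3 Caco2 libraries (circles) and 3 RT4 libraries (squares), for the 10 genes with the largest product of shares. For ACSL5 and PARP2 the leading transcript of one line is near 0% in the other, while NDUFS5 transcript ENST00000372967 still carries 45.7% to 49.1% in RT4.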

How the data were processed

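Poly-A RNA of 9 cell lines was sequenced in 27 libraries, 3 per line, from stranded libraries. Per the submitters' processing notes, CASAVA 1.8, kallisto 0.43.1 and GRCh 38 were used; neither the annotation release nor the strand and bias settings were stated there. The authors' deposited tables hold an estimated count and a TPM per transcript, per the file headers.

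Transcripts were matched to GENCODE 29, and 159887 of 176241 matched. Estimated counts were summed to genes, rounded to whole numbers and tested with edgeR 4.0.16 (R 4.3.3; filterByExpr, TMM, robust quasi-likelihood fit of all 27 libraries, Benjamini-Hochberg adjustment over 17220 genes). A call needed an adjusted p under 0.05 and a log2 fold change of at least 1 in size. Genes held within 2-fold had a 95% interval inside that range. Genes high in both lines passed a one-sided test against each of the other 7 lines, with at least a 4-fold margin. SE and intervals were not given where a line had 0 counts. Deposited TPM were summed to genes for display. Depth was 15597117 to 28199711 estimated counts, and floors cover counting error only. DESeq2 1.42.0, limma 3.58.1, other scalings and filters, and fits without single libraries were tried as alternatives, and the code was tested on simulated data.

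The rule for named genes took the 15 protein-coding genes furthest in each direction (mean of at least 20 TPM in the higher line, no overlap), in each list up to 5 called members a direction and 3 not called, the 10 with the largest margin in both lines and the 10 transcript differences with the largest product of shares. Other list members and the promoters were picked with their values in view. The members and gene lists were chosen with earlier results of these data known. Proteomics named in the series was not analysed here. Some genes that the naming rule or the lists took are not reported here.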

Additional observations from a re-analysis of the deposited data

Results flagged for a closer look

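Transcripts with no match in GENCODE 29 took 2.72% to 3.03% of estimated counts in the 6 libraries and entered no gene sum, so they lie outside the measurements reported above.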

How the results depend on the processing

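With limma on log2(TPM + 1), 2127 genes were higher in RT4, against 3341 with edgeR on counts. The genes high in both lines numbered 151 without the HepG2 libraries, against 61 with them. Dominant transcripts that differed between Caco2 and RT4 numbered 119 at a summed TPM of at least 1 and 15 at a summed TPM of at least 30, against 47 at 10, and 60 to 160 when 1 library was left out. The cause was not tested, beyond the fewer libraries that must then share a top transcript. FAM83A was the 1 gene called in opposite directions, at 67.8 TPM in Caco2 and 28.4 TPM in RT4. Its log2 fold change was -1.85 in counts and 1.27 with limma on log2(TPM + 1). FAM83A was also among the 47 genes whose top transcript differed. ENST00000523412, annotated as a processed transcript, carried 98.4% to 99.8% of its TPM in Caco2 libraries and 18.6% to 26.8% in RT4 libraries. The part of this transcript in the opposite calls was not tested. Over the named genes, 3758 values under alternatives kept their call, 66 lost it and 46 gained one, and none changed sign while called. Over the gene lists, 716 counts stayed within 1.5 times and 34 did not. No paired analysis was possible because Caco2 and RT4 share only 1 P number in their titles, whose meaning is not stated. The planned check of promoter motifs with another gene set was not run, since promoter coverage was too low. Genes with few counts in a line have uncertain folds, and near-identical genes (GSTA1 and GSTA2, KRT14, KRT16 and KRT17, SPRR genes) may share reads.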
